A study of Mus musculus with 6 samples.

Results

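Imprinted genes, which are read mainly from the copy inherited from only one parent, were compared between mouse embryonic stem (mES) cells and epiblast stem cells (EpiSC). Below, rose and fell mean higher and lower in EpiSC than in mES cells. The 37 genes were taken by name from the arrays' own gene column (Gtl2 is the older name of Meg3), were grouped by the parental copy that is expressed and by imprinted cluster, and were read by 76 of the 41174 probes. Of the 37, 34 were measured well enough to be tested among 20688 genes. Zim1, Slc22a2 and Slc22a3 were not, because no probe of theirs was well above background on any of the 6 arrays.

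Each group held 3 cultures. The mES lines were ESF122 (mES 1), ESF175/1 (mES 2) and a line (mES 3) that one label names ESF58/2 and another ESF58/1. EpiSC 1 was line EpiSC-5, and EpiSC 2 and EpiSC 3 were line EpiSC-7 at passage 20 and passage 25, so the 3 EpiSC samples came from 2 lines. All grew on irradiated mouse embryonic fibroblasts in DMEM with 15% KSR, BME, NEAA and L-glutamine, with LIF added for mES cells and FGF2 for EpiSC. No label gives a strain, a genotype or an age. The added factor and the array slide (each slide held arrays of 1 group) cannot be told apart from the cell type. The numbers 1 to 3 are names in deposit order and pair no samples, and no label says how the cultures relate, so a p-value here speaks only of the spread among these 6.

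Imprints are DNA methylation marks laid down in the egg or the sperm at a control region, which survive the wave of demethylation in the early embryo and then set which copy of the neighbouring genes is read. Many imprinted genes act on growth: as a broad rule paternally expressed ones promote growth of the fetus and placenta and maternally expressed ones restrain it. Some are imprinted only in placenta or in neurons. Cultured pluripotent cells are known for unstable imprints, which differ from line to line. The arrays do not tell the parental copies apart, so every value below is the sum of both copies, and in a bulk culture fewer cells of a type and less RNA per cell cannot be told apart.

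Signals below are processed spot intensities scaled so that all arrays share the same 75th percentile (arbitrary units), and a probe's level is never set against another probe's. Between 66.2% and 75.4% of probes were well above background per array. The pluripotency genes Pou5f1, Sox2 and Nanog were above background on all 6 arrays and did not pass the test, with adjusted p from 0.071 to 0.89, while Zfp42, a marker of naive ES cells, was at 34684, 61118 and 59666 in mES and at 22.4, 29.3 and 59.9 in EpiSC. Of 22 fibroblast markers, 21 were tested, and 20 or 21 were above background on every array: their summed signal ran from 40255 (mES 2) to 136706 (mES 3) and from 62899 (EpiSC 3) to 143959.8 (EpiSC 1), with Col1a2 missing from the sum on mES 3. These amounts differed within each group, and only Fn1 (lower) passed the test between groups. Imprinted genes whose values follow these markers are given beside them.

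In EpiSC, 13 of the 34 imprinted genes tested were higher than in mES cells and 2 were lower (limma, adjusted p under 0.05, n = 3 arrays per group). Over all genes tested, 26.3% passed, 11.8% higher and 14.5% lower. The imprinted genes had a median log2 difference (EpiSC minus mES) of 0.96, beside -0.11 over all genes; with other scalings the median over all genes lay between -0.17 and -0.01. The groups of arrays did not overlap for 21 imprinted genes, 17 higher and 4 lower, beside 48.5% of all genes, 20% higher and 28.6% lower. The 17 include Peg10, which entered the test through EpiSC alone.

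Over all 6 arrays the split by parental copy, which is background knowledge and was not measured in these cells, was uneven. Of the 17 genes read from the paternal copy, all of which were tested, 9 were higher in EpiSC (Mest, Sgce, Peg3, Usp29, Magel2, Ndn, Peg12, Snrpn and Nnat) and 0 were lower, with a median difference of 1.26. Of the 16 tested genes read from the maternal copy, 3 were higher (Asb4, Calcr and Grb10) and 2 were lower (Phlda2 and Slc22a18), with a median of 0.11. Gnas, whose transcripts are read from different copies, was higher. All 15 calls were kept under normexp correction, median scaling, quantile normalization and the authors' value table. When the arrays were omitted in turn, 10 of the 15 were kept in all 6 fits (Asb4, Nnat, Calcr, Magel2, Grb10, Sgce, Gnas, Ndn, Phlda2 and Slc22a18), and Snrpn, Peg12, Peg3, Usp29 and Mest were lost in at least 1. With only the 4 arrays at slide position 4, these 5 and Phlda2 and Slc22a18 were lost, and without the array of each group lowest in fibroblast markers Phlda2, Slc22a18, Snrpn, Ndn, Peg3, Usp29 and Mest were lost; both fits have 2 arrays per group. The 5 genes lost in at least 1 of the 6 fits are all of the paternal copy. Without EpiSC 3, 4 of the 17 paternal-copy genes and 3 of the 16 maternal-copy genes were called higher, beside 6.52% of all genes. Their medians were then 1.23 and 0.12. Without the arrays lowest in fibroblast markers the counts were also 4 and 3, beside 3.92% of all genes, with medians of 1.31 and 0.17. In those fits the calls were nearly even between the copies, while the medians still differed.

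**Figure D1:**
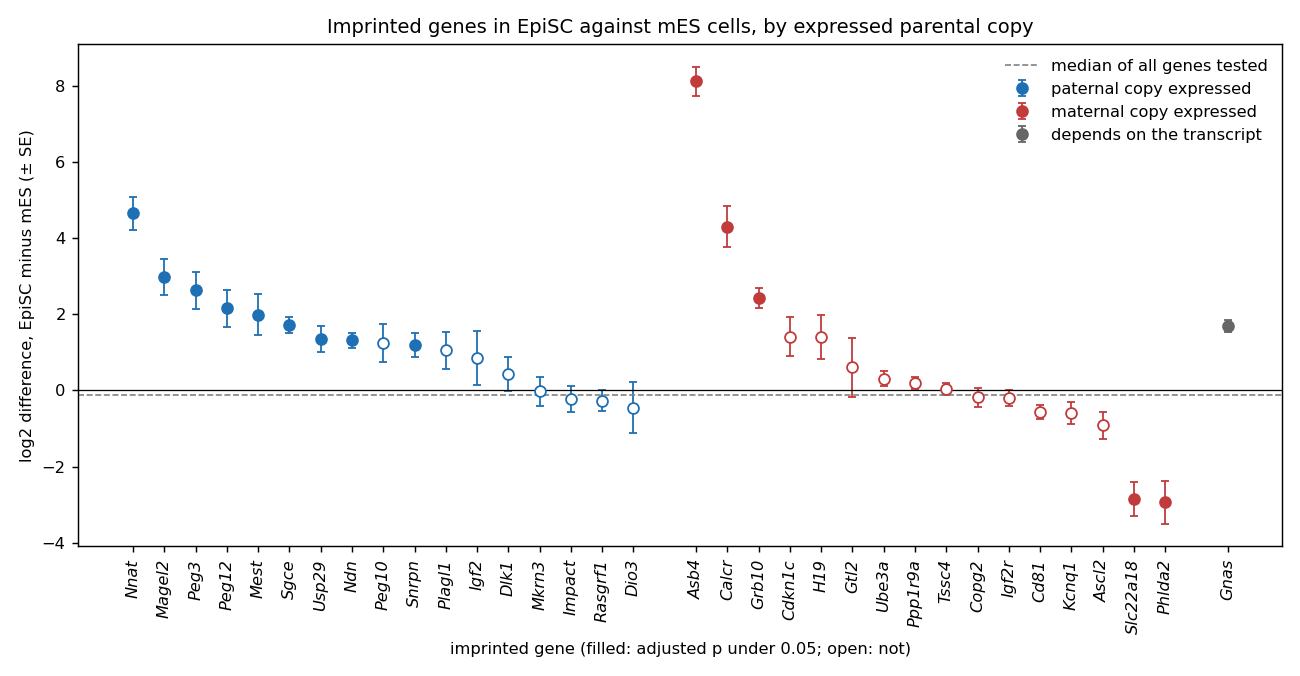
Log2 difference between EpiSC and mES (vertical axis, ± SE, n = 3 arrays per group) for the 34 imprinted genes tested, by expressed parental copy; filled circles passed an adjusted p of 0.05 and the dashed line is the median of all genes tested (-0.11). Of the 17 paternal-copy genes 9 are filled and above 0 and none is filled below it, while the maternal-copy genes run from Asb4 at 8.13 to Phlda2 at -2.94.

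The Peg10-Sgce cluster on chromosome 6 held the largest difference among the 34 genes. All 5 of its genes had EpiSC values above their mES values, and 3 passed the test. One of the 5, Peg10, entered the test through EpiSC alone. Asb4, a maternally expressed gene for an ankyrin-repeat subunit of a ubiquitin ligase, gave signals of 51.1, 51.2 and 47.3 in mES cells and of 15330.2, 7889 and 22656 in EpiSC. The mES values lay close together and far below the EpiSC values, of which EpiSC 2 was the lowest. The difference was 8.13 ± 0.38 on the log2 scale (SE, n = 3 per group, adjusted p = 0.00012), or 281-fold, and 6.94 under normexp correction. A second Asb4 probe was not well above background on any mES array (4.48 to 5.63) and was above it on all EpiSC arrays (331 to 1441).

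Calcr, the calcitonin receptor, also maternally expressed, read 112, 53.7 and 26.9 in mES cells and 757, 1536 and 1053 in EpiSC. Its log2 difference was 4.30 ± 0.54 (n = 3 per group, adjusted p = 0.0035), and it was smaller under normexp correction (3.17). The mES lines differed more among themselves than the EpiSC arrays did, with mES 3 lowest. A second probe read 14.2 to 20.5 in mES cells, where 1 array was above background, and 69.5 to 126 in EpiSC. It entered the test through EpiSC alone, and no size is given for it. Sgce, which encodes epsilon-sarcoglycan and is paternally expressed, read 1780.4, 1281 and 1457 in mES cells and 4152, 4737 and 6067 in EpiSC, a difference of 1.72 ± 0.22 (n = 3 per group, adjusted p = 0.00358). Its second probe gave 1.90 ± 0.20.

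Peg10, a paternally expressed gene derived from a retrotransposon and required for the placenta, lies next to Sgce and shares its control region. It was faint: 15.9, 37.9 and 8.95 in mES cells, with 1 of 3 arrays above background, and 39.6, 47.6 and 39.2 in EpiSC, with 3 of 3. It entered the test through EpiSC alone, so no size is given for it and the lack of overlap between its groups carries no weight. Peg10 did not pass over all arrays (adjusted p = 0.109), without mES 3 (0.194) or under normexp correction (0.659), and passed without mES 2 (0.017). Ppp1r9a, which encodes the actin-binding protein neurabin, read 1020.1, 1047 and 917 in mES cells and 1113, 1100.2 and 1204 in EpiSC on its brightest probe, a difference of 0.20 ± 0.15 that did not pass (adjusted p = 0.367). The groups did not overlap on that probe. Another probe, against another transcript, read 24.3, 25.5 and 29.5 in mES cells and 16.8, 4.48 and 2.76 in EpiSC, where 1 array was above background; it entered the test through mES cells alone, and no size is given for it.

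Start-site sequences are shown for 6 of the genes that passed: Asb4, with the largest difference, 3 paternal-copy genes, and the neighbours Phlda2 and Slc22a18, which fell together. They are shown to set their CG content side by side and are not a ranking. RefSeq promoter windows (GRCm38.p6) run from 250 bases before to 50 bases after the annotated start, 5′ to 3′ on the gene's strand, with CG, the dinucleotide that carries imprint methylation, in capitals. The Asb4 window at chr6:5390160-5390459 (plus strand), the one of its windows richer in CG, held 8 CG, more than the richest window of 49% of genes. The Nnat window at chr2:157559828-157560127 (plus strand) and the Mest window at chr6:30737800-30738099 (plus strand) each held 17. The Peg3 window at chr7:6730370-6730669 (minus strand) held 13. Phlda2 (chr7:143502475-143502774, minus strand) held 26 and its neighbour Slc22a18 (chr7:143473539-143473838, plus strand) held 2.
Asb4: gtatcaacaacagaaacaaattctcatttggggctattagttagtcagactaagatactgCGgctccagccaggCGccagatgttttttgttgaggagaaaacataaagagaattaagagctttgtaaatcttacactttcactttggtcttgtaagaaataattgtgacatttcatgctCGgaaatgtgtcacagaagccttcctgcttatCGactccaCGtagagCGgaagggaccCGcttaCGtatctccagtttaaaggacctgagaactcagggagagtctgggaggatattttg
Nnat: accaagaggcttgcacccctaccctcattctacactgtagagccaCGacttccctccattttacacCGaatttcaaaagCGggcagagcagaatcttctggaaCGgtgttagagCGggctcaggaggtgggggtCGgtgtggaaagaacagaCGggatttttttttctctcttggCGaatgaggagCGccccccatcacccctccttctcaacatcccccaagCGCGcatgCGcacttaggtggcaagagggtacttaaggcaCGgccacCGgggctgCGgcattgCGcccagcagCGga
Mest: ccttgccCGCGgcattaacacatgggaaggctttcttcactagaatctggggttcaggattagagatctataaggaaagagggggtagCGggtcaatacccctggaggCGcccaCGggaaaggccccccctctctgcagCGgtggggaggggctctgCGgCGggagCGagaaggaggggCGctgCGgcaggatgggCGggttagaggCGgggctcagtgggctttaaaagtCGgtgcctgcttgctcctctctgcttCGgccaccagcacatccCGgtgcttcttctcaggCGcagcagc
Peg3: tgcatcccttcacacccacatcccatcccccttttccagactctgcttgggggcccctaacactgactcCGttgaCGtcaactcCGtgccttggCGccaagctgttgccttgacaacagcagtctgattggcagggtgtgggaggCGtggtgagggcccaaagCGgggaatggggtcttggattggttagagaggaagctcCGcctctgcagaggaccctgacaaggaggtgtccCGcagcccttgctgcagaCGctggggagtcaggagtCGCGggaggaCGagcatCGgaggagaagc
Phlda2: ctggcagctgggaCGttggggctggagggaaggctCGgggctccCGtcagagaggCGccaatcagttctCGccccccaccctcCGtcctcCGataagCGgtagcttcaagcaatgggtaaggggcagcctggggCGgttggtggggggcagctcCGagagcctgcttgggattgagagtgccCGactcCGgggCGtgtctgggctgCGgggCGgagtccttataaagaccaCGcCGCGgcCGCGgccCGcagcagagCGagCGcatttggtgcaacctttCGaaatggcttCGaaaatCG
Slc22a18: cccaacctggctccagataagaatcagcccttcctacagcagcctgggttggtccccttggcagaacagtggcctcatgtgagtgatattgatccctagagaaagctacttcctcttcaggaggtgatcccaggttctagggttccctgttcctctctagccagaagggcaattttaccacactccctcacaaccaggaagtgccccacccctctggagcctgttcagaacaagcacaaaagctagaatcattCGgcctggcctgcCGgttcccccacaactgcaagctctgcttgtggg

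Over the 31 imprinted genes with a window, the richest window of a gene held a median of 20 CG (range 2 to 48), beside 8 over 27025 genes. The median was 16 for paternal-copy genes, 23 for maternal-copy genes and 15 for the genes higher in EpiSC. Of the neighbours that both fell, Phlda2 lay above the median and Slc22a18 at the lowest value. The letters TGCCGC, which contain a CG and are the core of the motif bound by ZFP57, a zinc-finger protein that protects imprints, were found on either strand in 12 of 47 windows (25.5%) of the imprinted genes and in 11.6% of all 32851 windows. The share was 27.3% in paternal-copy windows and 28.6% in maternal-copy windows. The windows of all genes were not matched to those of the imprinted genes for CG content. The overlapping windows of Mest hold the same matches. The Peg3 and Usp29 windows share 263 of their 300 bases on opposite strands, so these genes start from one stretch of DNA. No window was used for Cdkn1c, H19, Impact, Kcnq1, Peg10 or Sgce. Windows on chromosome 18, where Impact lies, were left out for the imprinted genes but not for all genes.

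Nnat, a paternally expressed gene for the small membrane protein neuronatin, showed the largest difference of the paternal-copy genes. It read 68.3, 93.6 and 64.5 in mES cells and 1806, 1073 and 3446 in EpiSC. Every EpiSC array was above every mES array, with EpiSC 2 lowest, and the difference was 4.66 ± 0.43 (n = 3 per group, adjusted p = 0.00127), or 25.3-fold, and 3.77 under normexp correction. Blcap, which contains Nnat within an intron, read 4324 to 5792 in mES cells and 4650.4 to 5209 in EpiSC and did not pass (-0.04 ± 0.18, adjusted p = 0.886).

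In the Peg3 cluster on chromosome 7, both genes that could be tested rose. Peg3, a zinc-finger gene known for its part in growth and maternal behaviour, read 329, 188 and 152 in mES cells and 1990.2, 653 and 1700.04 in EpiSC, a difference of 2.63 ± 0.49 (n = 3 per group, adjusted p = 0.0126). A second probe gave 2.26 ± 0.49, and the remaining probe was above background on 1 array in all. Usp29, a ubiquitin peptidase gene that starts beside Peg3 and runs the other way, read 81.3, 71.8 and 38.4 in mES cells and 200.3, 142 and 129 in EpiSC, a difference of 1.35 ± 0.34 (n = 3 per group, adjusted p = 0.0304). All EpiSC arrays lay above all mES arrays for both genes, but the second Usp29 probe read 34.9 to 62.1 in mES cells and 28.3 to 58.2 in EpiSC (-0.23 ± 0.34), and with the mean of both probes Usp29 was not called (0.56, adjusted p = 0.18). Without EpiSC 3 the adjusted p of Peg3 was 0.0511. Usp29 was lost without mES 2 (0.0563), EpiSC 1 (0.0925), EpiSC 2 (0.0654) or EpiSC 3 (0.0651), and with the EpiSC-7 arrays averaged (0.0591); under normexp correction it was 0.72 and passed (0.0226).

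Mest, a paternally expressed gene for a protein of the alpha/beta-hydrolase family, was bright in both cell types. It read 14789.95, 11619.5 and 6267 in mES cells and 57845, 18886 and 61858 in EpiSC. The groups did not overlap, yet the lowest EpiSC array (EpiSC 2) stood near the highest mES array. The difference of 1.99 ± 0.54 passed over all arrays (n = 3 per group, adjusted p = 0.0394) but not without mES 1 (0.0574), mES 2 (0.0804), mES 3 (0.0875), EpiSC 1 (0.116) or EpiSC 3 (0.122), nor with slide position as a block (0.0577). Fibroblasts also express Mest; it was highest in EpiSC on EpiSC 3 and lowest in mES cells on mES 3, where fibroblast markers were lowest and highest in turn, and their part in its values was not tested. Its neighbour Copg2, a coat-protein subunit of Golgi vesicles read from the maternal copy, read 3104, 3329 and 4212 in mES cells and 2279.6, 3873 and 3392 in EpiSC; the values overlapped and the difference was -0.18 ± 0.25 (adjusted p = 0.621).

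Of the genes higher in EpiSC, Asb4, Nnat, Peg3, Mest, Ndn, Grb10 and Gnas were each lowest among EpiSC arrays on EpiSC 2, on the probe standing for the gene. Calcr, Magel2 and Snrpn were highest there, and Sgce, Peg12 and Usp29 lay between. For Grb10 that probe read nearly the same on EpiSC 2 (31349.8) and EpiSC 3 (32146), and its other probes were lowest on EpiSC 3 (458 and 492). Another Gnas probe that rose was also lowest on EpiSC 3 (126). The summed markers of other lineages were lowest on EpiSC 2. The 14 tested of 16 endoderm markers summed to 1671, 1891 and 2552 in mES cells and to 42274, 15909.8 and 37517 in EpiSC; 5 were higher, Afp and Ttr were not well above background, and Foxa2 alone gave 22859.9, 12622 and 31109 of the EpiSC sums. The median deviation of these markers was 1.11, -0.12 and 0.00 on EpiSC 1 to 3, so their order between EpiSC 2 and EpiSC 3 rests on few genes. The 12 tested of 14 trophectoderm markers summed to 6682, 7069 and 7564 in mES cells and to 105209, 16080.1 and 74591 in EpiSC. Of these markers, 4 were higher (Eomes, Krt7, Krt8 and Krt18) and 3 lower (Tfap2c, Esx1 and Tead4). Krt8 and Krt18 made up most of the EpiSC sums, and Hand1 and Gcm1 were not well above background. The presence of such cells, and their part in these imprinted genes, was not tested.

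In the Snrpn-Ube3a cluster on chromosome 7, the region affected in Prader-Willi and Angelman syndromes, 4 of 6 genes rose in EpiSC and none fell. Magel2, a MAGE-family gene acting in protein trafficking, read 135, 132 and 62.8 in mES cells and 588, 1541 and 606 in EpiSC. Its difference of 2.98 ± 0.48 (n = 3 per group, adjusted p = 0.00744) was the largest of the cluster, and 2.32 under normexp correction. Ndn, which encodes necdin, another MAGE protein, read 393, 424 and 329 in mES cells and 979, 816 and 1071 in EpiSC, a difference of 1.32 ± 0.19 (n = 3 per group, adjusted p = 0.00521). Neither gene's groups overlapped, and Ndn and Magel2 both passed whichever of the 6 arrays was omitted.

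Peg12, a Frat-family gene acting in Wnt signalling, read 311, 826 and 218 in mES cells and 1430.4, 1787 and 1939 in EpiSC. The groups were apart, with mES 2 nearest to the EpiSC arrays, and the difference was 2.16 ± 0.48 (n = 3 per group, adjusted p = 0.0219). Snrpn, which encodes a splicing protein and whose promoter lies at the control region of the cluster, read 1986, 1877 and 1134 in mES cells and 2738, 4833 and 3851 in EpiSC, a difference of 1.20 ± 0.31 (n = 3 per group, adjusted p = 0.0339). Its second probe gave 1.04 ± 0.32 (adjusted p = 0.0533 over all probes). Snrpn was lost without mES 1 (0.0536), mES 2 (0.0626), mES 3 (0.0635), EpiSC 2 (0.0854) or EpiSC 3 (0.101), and Peg12 without mES 1 (0.0654), EpiSC 1 (0.0546), EpiSC 2 (0.0617) or EpiSC 3 (0.0773). With the EpiSC-7 arrays averaged to 1 sample neither passed (0.0836 for Snrpn and 0.0636 for Peg12).

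The other two genes of the cluster did not pass. Mkrn3, a makorin RING-finger gene of the paternal copy that lies between Magel2 and Peg12, read 169, 233 and 108 in mES cells and 134, 248 and 123 in EpiSC. Its values overlapped, and its difference of -0.02 ± 0.38 changed sign under median scaling (0.08) and quantile normalization (0.03). Ube3a, the ubiquitin ligase read from the maternal copy in neurons and from both copies in most other cells, read 7454, 6549.6 and 5479 in mES cells and 7307, 8909.5 and 7890.4 in EpiSC, a difference of 0.31 ± 0.19 (adjusted p = 0.248).

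**Figure D2:**
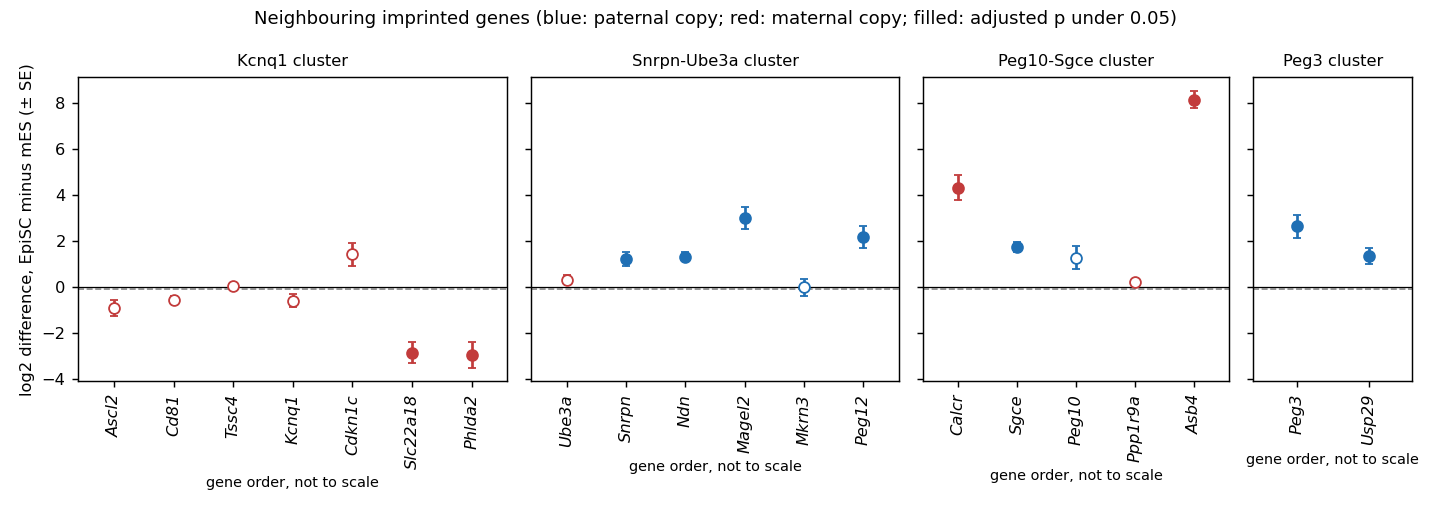
Log2 difference between EpiSC and mES (vertical axis, ± SE, n = 3 arrays per group) for neighbouring genes in 4 imprinted clusters, in gene order and not to scale; filled circles passed an adjusted p of 0.05. In the Kcnq1 cluster only the neighbours Slc22a18 and Phlda2 are filled, both below 0, and in the Snrpn-Ube3a cluster Mkrn3 (-0.02) stands between the higher Magel2 and Peg12.

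The Kcnq1 cluster on chromosome 7, all of whose 7 genes here are read from the maternal copy, held the only ones of the 34 that fell. In gene order its differences were -0.92 (Ascl2), -0.57 (Cd81), 0.03 (Tssc4), -0.60 (Kcnq1), 1.41 (Cdkn1c), -2.85 (Slc22a18) and -2.94 (Phlda2), with a median of -0.60. Only the neighbours Slc22a18 and Phlda2 passed.

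Phlda2, which restrains growth of the placenta, read 14365, 12008 and 11809 in mES cells and 669, 3229 and 2098 in EpiSC. The mES values lay close together, the EpiSC values were all lower, and EpiSC-5 was the lowest. The difference was -2.94 ± 0.56 (n = 3 per group, adjusted p = 0.0127), or 7.66-fold lower in EpiSC; it was -2.28 without EpiSC 1, and a second probe gave -2.61 ± 0.55. Slc22a18, a transporter of the organic cation family, read 561, 665 and 959 in mES cells and 74, 195 and 65.5 in EpiSC, a difference of -2.85 ± 0.45 (n = 3 per group, adjusted p = 0.00711). Its second probe, against the same transcript, read 176 to 202 in mES cells and 117 to 139.9 in EpiSC, with no overlap and a smaller difference of -0.56 ± 0.16 (adjusted p = 0.0484 over all probes), and the mean of both probes gave -1.71. Both genes passed with any 1 array left out, and with only the 4 arrays at slide position 4 the differences were -3.16 and -2.35 and did not pass (adjusted p = 0.0757 and 0.0598). Without the arrays lowest in fibroblast markers they were -3.15 and -2.61 (0.0819 and 0.0634).

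Cdkn1c, a cyclin-dependent kinase inhibitor of the same cluster, lay on the other side of 0. It read 1855, 2176 and 714 in mES cells and 2486, 5988 and 3609 in EpiSC. The groups did not overlap, but the difference of 1.41 ± 0.51 did not pass (adjusted p = 0.0858). Ascl2, a transcription factor of the placenta, read 569, 274 and 236 in mES cells and 182, 208 and 143 in EpiSC, and Cd81, a tetraspanin of the cell surface, read 30371, 24995 and 35265 in mES cells and 19522, 20633 and 20138 in EpiSC. Both had all EpiSC values below all mES values, and neither passed (adjusted p = 0.106 and 0.0618); Cd81 passed under normexp correction (-0.56, adjusted p = 0.032) and with a mean-variance trend (0.0258), and did not under median scaling (-0.48, 0.153) or quantile normalization (-0.33, 0.225).

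Tssc4 read 3526, 4153 and 3942 in mES cells and 3978, 4235 and 3656 in EpiSC, with overlapping values and a difference of 0.03 ± 0.16. Kcnq1, a potassium channel subunit, read 140.01, 96.4 and 128 in mES cells and 116, 69.2 and 61.7 in EpiSC (-0.60 ± 0.29, adjusted p = 0.171). A second Kcnq1 probe, against another transcript, entered the test through EpiSC alone and likewise did not pass, and no size is given for it. Kcnq1ot1, the paternally expressed antisense RNA that silences the cluster on the paternal copy, read 1145, 1064 and 447 in mES cells and 1038, 1050.5 and 702 in EpiSC, a difference of 0.16 ± 0.40 (adjusted p = 0.782).

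Grb10, an adaptor that restrains insulin and IGF receptor signalling and is read from the maternal copy outside neurons, read 7494, 7016 and 6995 in mES cells and 56913, 31349.8 and 32146 in EpiSC. The mES lines were nearly alike and every EpiSC array was higher, by 2.43 ± 0.26 on the log2 scale (n = 3 per group, adjusted p = 0.00225), or 5.38-fold. Its other probes gave 2.16 ± 0.29 and 2.72 ± 0.69, both past the threshold over all probes. The Grb10 window richest in CG (chr11:12037371-12037670, minus strand) held 45 CG, more than 97.8% of genes.

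Gnas yields several transcripts from one locus: Gs-alpha, the G-protein subunit that activates adenylyl cyclase, is read from both copies in most tissues, whereas the other first exons are read from the maternal or the paternal copy. The probe standing for the gene read 2877, 2483 and 2745 in mES cells and 8796, 8129.5 and 9133 in EpiSC, a difference of 1.69 ± 0.16 (n = 3 per group, adjusted p = 0.00128). Another bright probe (transcript NM_010309) read 1705, 1554 and 1503 in mES cells and 5457, 5044 and 5761 in EpiSC (1.77 ± 0.16), and the probe for AK017423 read 70.6, 70.9 and 33.2 in mES cells and 182, 185 and 126 in EpiSC (1.56 ± 0.35, adjusted p = 0.021 over all probes). These 3 rose together, while the mean of all measured probes gave 0.70 (adjusted p = 0.0441). The remaining 5 did not pass or were not measured: 3 faint probes differed by -0.79, -0.17 and 0.12, and 2 were not well above background on any array. The faint probe at -0.17 is likewise against transcript NM_010309.

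**Figure D3:**
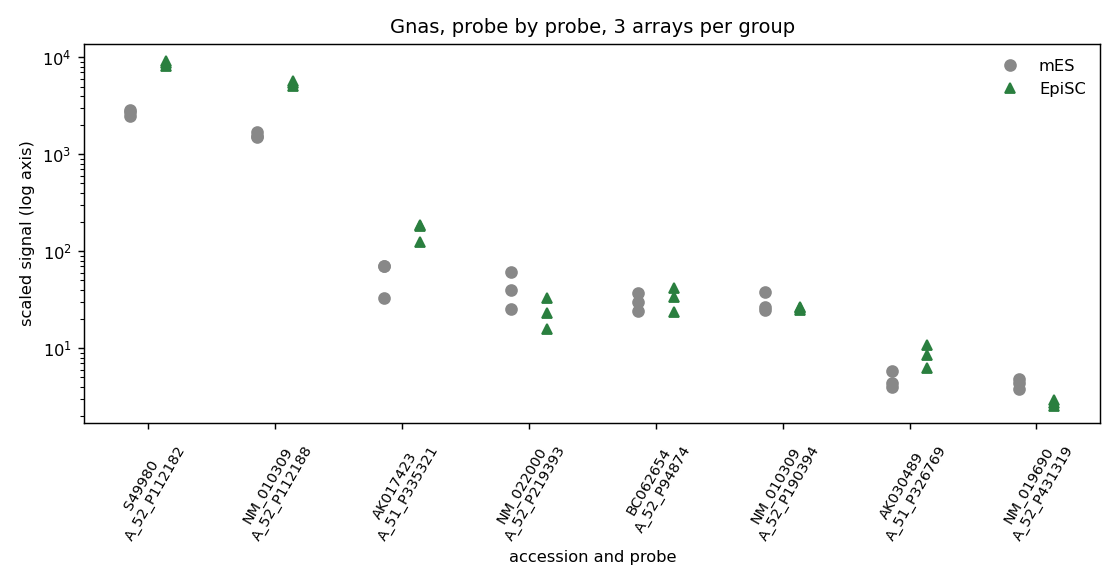
Scaled signal (log axis) of each of the 8 Gnas probes on the 3 mES arrays (circles) and the 3 EpiSC arrays (triangles), labelled by transcript accession and probe name. The 3 brightest probes have all EpiSC arrays above all mES arrays; levels of different probes are not comparable.

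H19 and Igf2 share one control region on chromosome 7 and are read from opposite copies: H19, a noncoding RNA, from the maternal copy and Igf2, a growth factor, from the paternal one. H19 read 2339, 832 and 3722 in mES cells and 7339, 3792 and 4899.7 in EpiSC. The groups did not overlap, and the difference of 1.41 ± 0.57 did not pass (adjusted p = 0.111). Igf2 read 6484, 1387 and 7961 in mES cells and 11434, 7976 and 4591 in EpiSC, with overlapping values (0.85 ± 0.71, adjusted p = 0.398). Second probes gave 1.35 ± 0.58 for H19 and 0.89 ± 0.66 for Igf2.

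Both genes were lowest on mES 2, the mES array lowest in fibroblast markers, and Igf2 was the lowest of the EpiSC arrays on EpiSC 3, the EpiSC array lowest in them. The median log2 deviation of the fibroblast markers from their own means was 0.37, -1.58 and 1.35 in mES cells and 1.07, 0.30 and -1.69 in EpiSC. Igf2 differed by -2.37 between mES 2 and the mean of the other mES lines, H19 by -1.83, Plagl1 by -1.33 and Dlk1 by -1.26. Fibroblasts of the embryo express these genes, and the part of feeder RNA in their values was not tested.

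The Dlk1-Gtl2 cluster on chromosome 12, known for being silenced in some pluripotent lines, passed no test between the cell types and varied between lines. Dlk1, a Notch-related ligand of the paternal copy, read 957, 389 and 907 in mES cells and 810.2, 1440.2 and 702 in EpiSC. Gtl2, a noncoding RNA of the maternal copy, read 21676, 16153 and 3132 in mES cells and 18631, 23709 and 8904 in EpiSC, and Dio3, a thyroid hormone deiodinase of the paternal copy, read 89, 111 and 296 in mES cells and 192, 43.8 and 137 in EpiSC. None of the 3 passed (0.43 ± 0.44, 0.61 ± 0.77 and -0.45 ± 0.67, adjusted p from 0.493 to 0.644), and the values of each overlapped. Without mES 3 the differences of Gtl2 (-0.25) and Dio3 (0.08) changed sign, and without EpiSC 2 that of Dio3 did (0.18).

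Gtl2 was low on mES 3, where its log2 level differed by -2.58 from the mean of the other mES lines; all 5 of its probes were lowest there. Rian and Mirg, the noncoding RNAs read from the maternal copy behind Gtl2, were likewise lowest on mES 3. Rian read 5540.5, 2020.1 and 347 in mES cells and 1714, 4592 and 1874 in EpiSC, and Mirg read 2346, 1239.8 and 260.1 in mES cells and 2012, 3449.6 and 1372 in EpiSC. Dio3 was highest on that same array, and fibroblast markers were highest there too among mES arrays. A single array of the line gives no test of it.

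**Figure D4:**
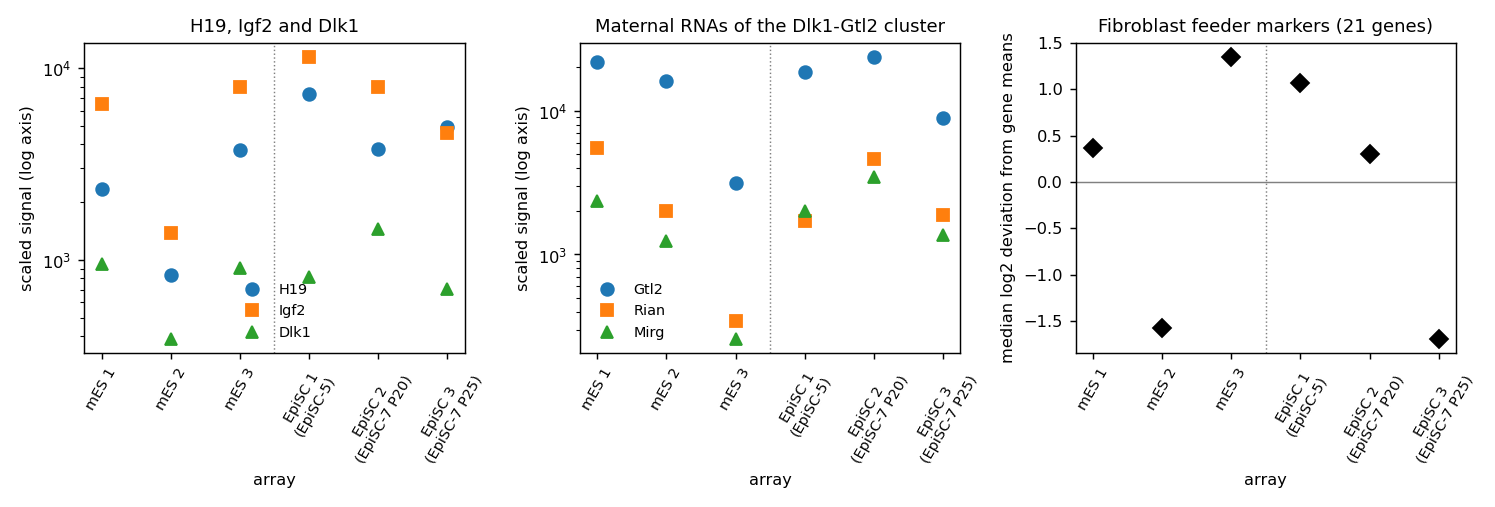
Scaled signal (log axis) on each of the 6 arrays for H19, Igf2 and Dlk1 (left) and for the maternal noncoding RNAs Gtl2, Rian and Mirg (middle), and the median log2 deviation of 21 fibroblast markers from their means over the arrays (right). H19, Igf2, Dlk1 and the fibroblast markers are lowest in mES cells on mES 2, and all 3 noncoding RNAs are lowest on mES 3.

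Igf2r, the receptor that takes Igf2 to the lysosome, was the only one of its cluster on chromosome 17 to be tested. It read 4416, 3458 and 3446 in mES cells and 3877, 3306 and 2634 in EpiSC, with overlapping values (-0.21 ± 0.21, adjusted p = 0.478). Probes named Air, the paternally expressed antisense RNA that silences Slc22a2, Slc22a3 and Igf2r on the paternal copy, were faint: the brightest read 91.9, 5.84 and 7.2 in mES cells, where 1 array was above background, and 255, 50.3 and 64.8 in EpiSC, where all were. That probe entered the test through EpiSC alone and did not pass (adjusted p = 0.145), and no size is given for it. Another Air probe was not well above background on any mES array and read 60, 14.7 and 16.3 in EpiSC, where all were above background.

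Of the genes that stand alone, Plagl1, a zinc-finger gene of the paternal copy known to act on other imprinted genes, read 399, 253 and 1017 in mES cells and 981, 1007 and 946 in EpiSC. The EpiSC values were nearly alike, mES 3 lay above them, and the difference of 1.06 ± 0.49 did not pass (adjusted p = 0.15); without mES 3 it was 1.62 and passed (adjusted p = 0.0112), and without mES 2 it was 0.62 (0.318). A second Plagl1 probe gave -0.31 ± 0.18. Impact, a regulator of translation, read 5717 to 11284 in mES cells and 5984 to 10318 in EpiSC (-0.22 ± 0.34), and Rasgrf1, an activator of Ras, read 23.9 to 45.5 and 26.9 to 32.9 (-0.27 ± 0.28). Both were paternal-copy genes with overlapping values, and neither passed.

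Imprinted genes varied more among arrays of one group than the median gene did. Their median SD on the log2 scale was 0.52 in mES cells and 0.45 in EpiSC, beside 0.26 and 0.25 over all genes. With mES 3 set against the mean of mES 1 and mES 2, 7 of 34 were at least 2-fold lower (Gtl2, Calcr at -1.53, Cdkn1c at -1.49, Peg10 at -1.46, Peg12 at -1.22, Magel2 at -1.09 and Mest at -1.06), beside 8.35% of all genes. Another 4 were at least 2-fold higher (Plagl1 at 1.68, Dio3 at 1.58, H19 at 1.42 and Igf2 at 1.41), beside 4.78%. On mES 2, set against the mean of mES 1 and mES 3, 2 were that much higher (Peg10 at 1.67 and Peg12 at 1.66), beside 5.13%, and the 4 genes named with the fibroblast markers were that much lower, beside 4.53%. Arrays of one line are single samples, so these differences are values with no test.

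Passages 20 and 25 of EpiSC-7 differed at least 2-fold in 10 of the 34. At passage 25, 5 were higher (Mest by 1.71, Nnat by 1.68, Dio3 by 1.64, Asb4 by 1.52 and Peg3 by 1.38), beside 3.79% of all genes, and 5 were lower (Slc22a18 at -1.57, Gtl2 at -1.41, Magel2 at -1.35, Dlk1 at -1.04 and Mkrn3 at -1.01), beside 6.73%. The line EpiSC-5 differed from the mean of EpiSC-7 by that much in 2 genes, Dio3 (1.31, beside 4.83% of genes higher) and Phlda2 (-1.96, beside 1.47% lower). The passage cannot be told apart from the position on the slide (position 4 for passage 20 and position 1 for passage 25). The passages also differed in fibroblast markers, with summed signals of 99607 at passage 20 and 62899 at passage 25, and the part of this in the 10 genes was not tested.

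**Figure D5:**
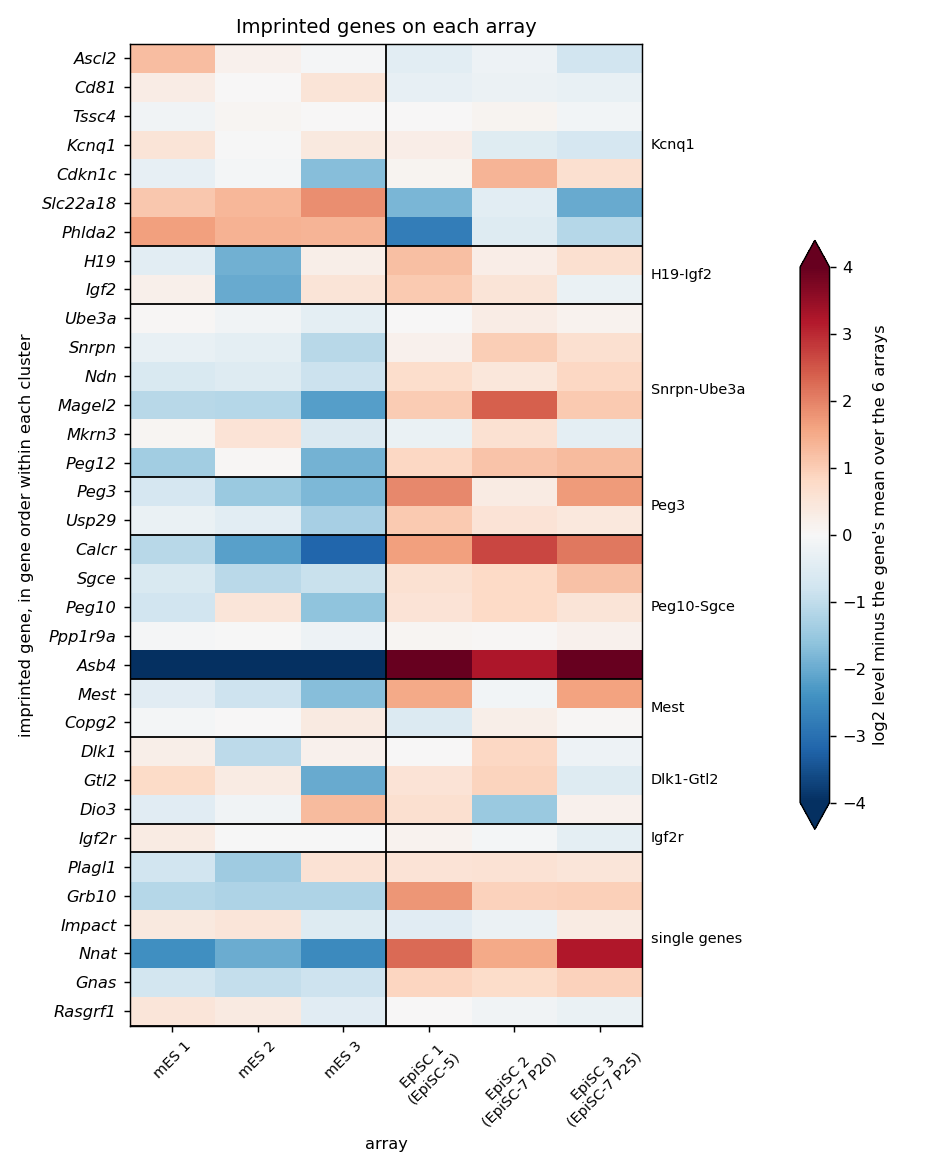
Log2 level of each of the 34 imprinted genes on each array minus the gene's mean over the 6 arrays (colour), in gene order within clusters. Asb4 lies beyond the colour scale on 5 of the arrays; Nnat, Calcr, Magel2 and Grb10 are low on all mES and high on all EpiSC arrays, Phlda2 and Slc22a18 the reverse, and Gtl2 is low on mES 3.

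A list of 20 genes that write, read, protect or remove the methylation on which imprints rest, or act on chromatin at them, held 19 that were tested. Of these, 10 were lower in EpiSC and 0 higher, beside 14.5% and 11.8% of all genes, with a median difference of -0.60. With any 1 array left out, 7 of the 10 passed. The 10 include Zfp42, the marker of naive ES cells given above, and Dppa3, which entered the test through mES cells alone. The list was chosen with earlier results of these data known, and its count is no test of these regulators. Dnmt3l, the cofactor that directs DNA methylation at imprints in germ cells, read 32418, 23853 and 5528 in mES cells and 204, 249 and 187 in EpiSC (-6.26 ± 0.64, n = 3 per group, adjusted p = 0.0018). Dppa3, which shields the maternal genome from demethylation in the zygote, read 3687, 5031 and 376 in mES cells and was not well above background on any EpiSC array. No size is given for Dppa3. Zfp57, which binds methylated imprints, read 254, 423 and 700.2 in mES cells and 104, 106 and 108 in EpiSC (-2.00 ± 0.36, n = 3 per group, adjusted p = 0.0111). No value of one group overlapped the other for Dnmt3l and Zfp57.

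Differences were smaller for Trim28, Dnmt1, Kdm1b and Uhrf1. Trim28, the partner of Zfp57, differed by -0.68 ± 0.19 (adjusted p = 0.0412) and Dnmt1, which copies methylation at cell division, by -0.60 ± 0.16 (adjusted p = 0.0358). Both were lost whichever array was left out, with adjusted p from 0.0568 to 0.12 for Trim28 and from 0.0723 to 0.108 for Dnmt1, and so was Kdm1b, a histone demethylase needed for imprints in the egg (-0.60 ± 0.17, adjusted p = 0.0466, then 0.0651 to 0.128). Uhrf1, which brings Dnmt1 to replicating DNA, did not pass (-0.38 ± 0.16, adjusted p = 0.122). Neither did the methyltransferases Dnmt3a (-0.85 ± 0.51, adjusted p = 0.247) and Dnmt3b (0.65 ± 0.79, adjusted p = 0.558). Both were lowest in mES cells on mES 3 (1841 and 3299.96), and Dnmt3a passed only without mES 3 (adjusted p = 0.00705). Of the 10, Zfp42 (-10.53) and Tet2 (-2.80), which oxidises methylated cytosine, also fell, and they passed whichever array was omitted. The same held for Tet1 (-1.79) and Eed (-1.53).

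A further 40 imprinted genes that are not among the 37 were also counted. Of the 29 tested, 4 were higher and 2 were lower, beside 11.8% and 14.5% of all genes, so the higher ones were near the share of any gene; the median difference was 0.23. Osbpl5 (2.51 ± 0.59, adjusted p = 0.0251), near Phlda2, and Pon2 (2.36 ± 0.26, adjusted p = 0.00225) and Pon3 (1.15 ± 0.31, adjusted p = 0.0364), near Asb4 and Ppp1r9a, were higher, as was H13 (1.02 ± 0.22, adjusted p = 0.0205). Gab1, a signalling adaptor imprinted in placenta (-3.72 ± 0.21, adjusted p = 0.000242), and Zrsr1 (-1.12 ± 0.20, adjusted p = 0.0109) were lower. Pon2, Gab1 and Zrsr1 passed with any 1 array left out. Osbpl5 and H13 passed only without mES 3 or EpiSC 2 (adjusted p up to 0.0875 and 0.0706 otherwise) and Pon3 only without mES 3 (up to 0.101).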

How the data were processed

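Total RNA of 3 mES and 3 EpiSC cultures was extracted with TRIzol and labelled with Cy3, per the labels. The authors deposited 1-colour Agilent scanner files whose processed signal is an intensity on a linear scale, made with Agilent Feature Extraction 9.1.3.1 per the file headers, with no normalization between arrays. The authors' value table, used as an alternative, also holds an intensity. The probes' genome build was not given in the sources used here.

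Control spots and spots marked as outliers (12 to 24 per array) were left out, and 0 were saturated. Each array's 75th percentile was subtracted from its log2 processed signal, and spots of a probe were averaged. Probes entered when all 3 arrays of mES cells, of EpiSC or of both had them well above background, with at most 1 value missing in a group. The entering probe with the highest mean stood for its gene. Of the 76 probes of the 37 genes, 56 matched a RefSeq accession (GRCm38.p6 table), with 0 under another symbol. The 20688 genes were compared with limma 3.58.1 (R 4.3.3, lmFit and eBayes, all 6 arrays, Benjamini-Hochberg over all genes, threshold 0.05), which was tested on simulated data. The number of arrays limits the precision: the median SE was 0.241 on the log2 scale. Probe-level values were adjusted over 29549 probes.

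Parental copy and cluster are background knowledge, as are the gene lists; the genes and lists were chosen with earlier results of these data known, and no list was tested as a set. Every gene of the 37 is named, and genes that passed, that did not overlap between groups or that share a cluster with one are given on every array. From the other lists, up to 4 genes past the threshold each way are named, and Dnmt1, Dnmt3l, Zfp57, Trim28, Uhrf1 and Dppa3. Kdm1b, Tet1, Eed, Dnmt3a, Dnmt3b and Xist were named after their values were seen. So were Blcap, Kcnq1ot1, Rian, Mirg and Air, which lie beside genes of the 37. The alternatives were normexp on the mean and background signals, median and quantile scaling, the value table, 2 other filters, every probe or the mean of probes, EpiSC-7 averaged, slide as a random block, a variance trend and each array left out; position on the slide and arrays low in fibroblast markers were added after seeing the data.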

Additional observations from a re-analysis of the deposited data

How the results depend on the processing

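The count of imprinted genes higher in EpiSC was 13 and ran from 8 to 12 with 1 array left out; it was 8 without the array of each group lowest in fibroblast markers and 16 with slide as a random block. That block had a within-slide correlation of -0.68, so its added calls carry no weight. The count of lower genes was 2, stayed at 2 with any 1 array left out, was 5 with the slide block, and was 0 both with the 4 arrays at position 4 and without the arrays lowest in fibroblast markers. Those last fits use 2 arrays per group and keep 8 of the 15 calls each. With EpiSC-7 averaged to 1 sample 12 of 15 were kept (Snrpn, Peg12 and Usp29 were lost), and with array position as a block 14 (Mest was lost).

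Signs turned only among genes that did not pass. With the mean of a gene's probes, Kcnq1 was 0.24, Ppp1r9a -0.30 and Rasgrf1 0.19. Mkrn3 was 0.08 with median scaling, 0.03 with quantile normalization, 0.20 with the slide block and 0.43 without the arrays lowest in fibroblast markers. With 1 array left out, Mkrn3 ran from -0.34 to 0.24, Tssc4 from -0.03 to 0.09, Copg2 from -0.34 to 0.04, Dio3 from -0.89 to 0.18 and Gtl2 from -0.25 to 1.15. The cause was not tested. No paired analysis was possible because the labels give the groups no shared replicate numbers. Faint probes (Peg10, Usp29, Rasgrf1 and Air) lie near background.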
